A study of Mus musculus with 18 samples.

Results

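The mRNAs of the mitochondrial ribosomal proteins were followed in the livers of 18 mice of 3 SIRT1 genotypes on 2 diets. Members were all genes whose symbol in the array annotation starts with Mrpl or Mrps and a number, which gave 76 genes with 110 probes. A gene was kept when a probe had a detection p (the share of negative control beads at least as bright) under 0.05 in at least 2 of the 18 libraries, and its brightest probe stood for it. This left 70 members among the 8950 genes kept on the array, 27 with a small subunit symbol and 43 with a large subunit symbol. The 6 members left out as too dim were Mrps14, Mrps36, Mrpl19, Mrpl21, Mrpl32 and Mrpl45. Mrpl41 and Mrpl44 were not analysed here. Of the 70 kept, 66 were detected in all 18 libraries, while Mrpl51 was detected in 17, Mrpl57 in 14, Mrps27 in 11 and Mrpl39 in 2.

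Mitochondria carry their own ribosomes, which translate the few proteins that the mitochondrial genome encodes, all of them subunits of the respiratory chain and the ATP synthase. The ribosomal RNAs come from that genome, whereas every ribosomal protein is encoded in the nucleus, made in the cytosol and imported. In liver, an organ rich in mitochondria, the supply of these proteins is one of the points at which nuclear and mitochondrial gene expression must be matched, and nuclear respiratory factors with the coactivator PGC-1α are known regulators of the mitochondrial translation machinery.

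The mice were C57BL/6J, wild-type (SIRT1+/+), heterozygous (SIRT1+/-) or null (SIRT1-/-) for the deacetylase SIRT1, and ate either freely (ad libitum, AL) or 40% less under calorie restriction (CR). The diets began at 2 to 5 months of age and the livers were taken at 13 to 16 months. On AL there were 3 SIRT1+/+ livers, 2 of SIRT1+/- and 4 of SIRT1-/- mice, while every genotype had 3 on CR. The null allele acts in the whole animal, so a hepatic effect of genotype cannot be told apart from one that begins in another tissue.

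Several libraries went against or aside from their labels. Every mouse was labelled male, but Xist, the RNA that coats the silenced X of females, was detected in 7 libraries, 5 of the 9 on CR and 2 of the 9 on AL, and the study's methods speak of both sexes. On AL both libraries with Xist were among the 4 of SIRT1-/- mice. On CR they were 2 of 3 in SIRT1+/+, 1 of 3 in SIRT1+/- and 2 of 3 in SIRT1-/- mice. The median signal of an array was 73.5 to 86.6 in 8 arrays, 6 of them CR and 2 AL, and 57.4 to 67.7 in the other 10, a grouping (the signal class of an array) seen only after the data were read and named by no label. The names of the deposited signal columns number the arrays, with CR at 1 to 9 and AL at 10 to 18. What the numbers stand for is not given, and an effect of diet cannot be told apart from one of this order. The ratio of each CR effect to its spread over all probes is also listed with the study, for 213 genes on this array. Ratios rebuilt here from the deposited scores lay within 0.02 of that list for 198 genes in SIRT1+/+ livers, yet for just 10 genes in SIRT1+/- and 8 genes in SIRT1-/- livers. Moving 1 library, labelled AL SIRT1-/- replicate 1, to the AL SIRT1+/- group raised the matches to 197 and 199. The label was kept here, and for several results that moved without this library the value without it is also given. Of the hepatocyte markers Apoa1, Ttr and Cps1 were detected in all 18 libraries, Alb in 14 and Tat in 0, and the summed signal of the 5 was 59942 to 73521 on AL and 72848 to 93124 on CR. Sums of markers here are of signals that were not normalized, and more CR than AL arrays were of higher signal. On the normalized scale 0 of the 4 hepatocyte markers kept were called for the CR effect averaged over genotypes. Of the other markers tested, Alas2 of the erythroid list and Cela1 of the pancreas list were lower on CR, by 1.61 and 1.28 on the log2 scale (limma adjusted p = 0.0142 and 0.00168). Summed signals were 11621 to 32187 on AL and 13806 to 33843 on CR for the 2 erythroid probes, and 473 to 2433 and 590 to 1284 for the 3 pancreas probes. The other 2 pancreas probes, of Prss2 and Cpa1, were detected in 0 libraries, so that list rests on Cela1 alone. By genotype, the CR effect on Alas2 was -2.23 in wild-type, -2.17 in heterozygous and -0.44 in null livers (limma adjusted p = 0.107, 0.409 and 0.757), and that on Cela1 was -1.86, -1.74 and -0.26 (adjusted p = 0.0122, 0.183 and 0.712). The difference of these effects between wild-type and null livers had an adjusted p of 0.951 for Alas2 and 0.465 for Cela1. On AL, null livers were lower than wild-type livers for Cela1 (-1.74, adjusted p = 0.0115), and the difference for Alas2 was -2.14 (adjusted p = 0.184). Their part in the results below was not tested, and in whole liver fewer cells of a type cannot be told apart from less RNA per cell. The probe of Sirt1 did not separate the genotypes, with 1.14 ± 0.0548 (SD, n = 3) in wild-type and 1.04 ± 0.167 (n = 4) in null mice on AL, and it is not known here if the probe falls in the deletion. By RT-qPCR of the mRNA and Western blot of the protein, the study did report liver SIRT1 falling in proportion with genotype on both diets.

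Levels are given as scaled log2 signal, the z-score of a probe within its array multiplied by the mean spread of log2 signal over arrays (1.84), so that 0 is the mean probe of an array and a difference of 1 is a doubling on an array of average spread. The highest scaled value was 7.29 to 7.98 in the arrays of higher signal and 8.31 to 9.02 in the others. Fold values below are on this scale, of signals without background subtraction. Because probes bind with different strength, a level is compared only with the same probe in other libraries. A change was called at a limma adjusted p under 0.05 (Benjamini-Hochberg over all 8950 genes, two-sided).

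The first question was whether CR moved the mRNAs of the mitochondrial ribosome. Averaged over the 3 genotypes, 5 of the 70 members rose and 2 fell, against 6.41% of all genes that rose and 3.63% that fell. The risers were the small subunit proteins Mrps35, Mrps9 and Mrps12 and the large subunit proteins Mrpl47 and Mrpl18, and the genes that fell were Mrpl53 and Mrps18a. The brightest probes of the other 63 members did not pass, with changes on both sides of 0. The median change of the 70 was 0.030, beside 0.025 over all genes, and 41 of the 70 were above 0. The share of members called was near that of the whole array.

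**Figure D1:**
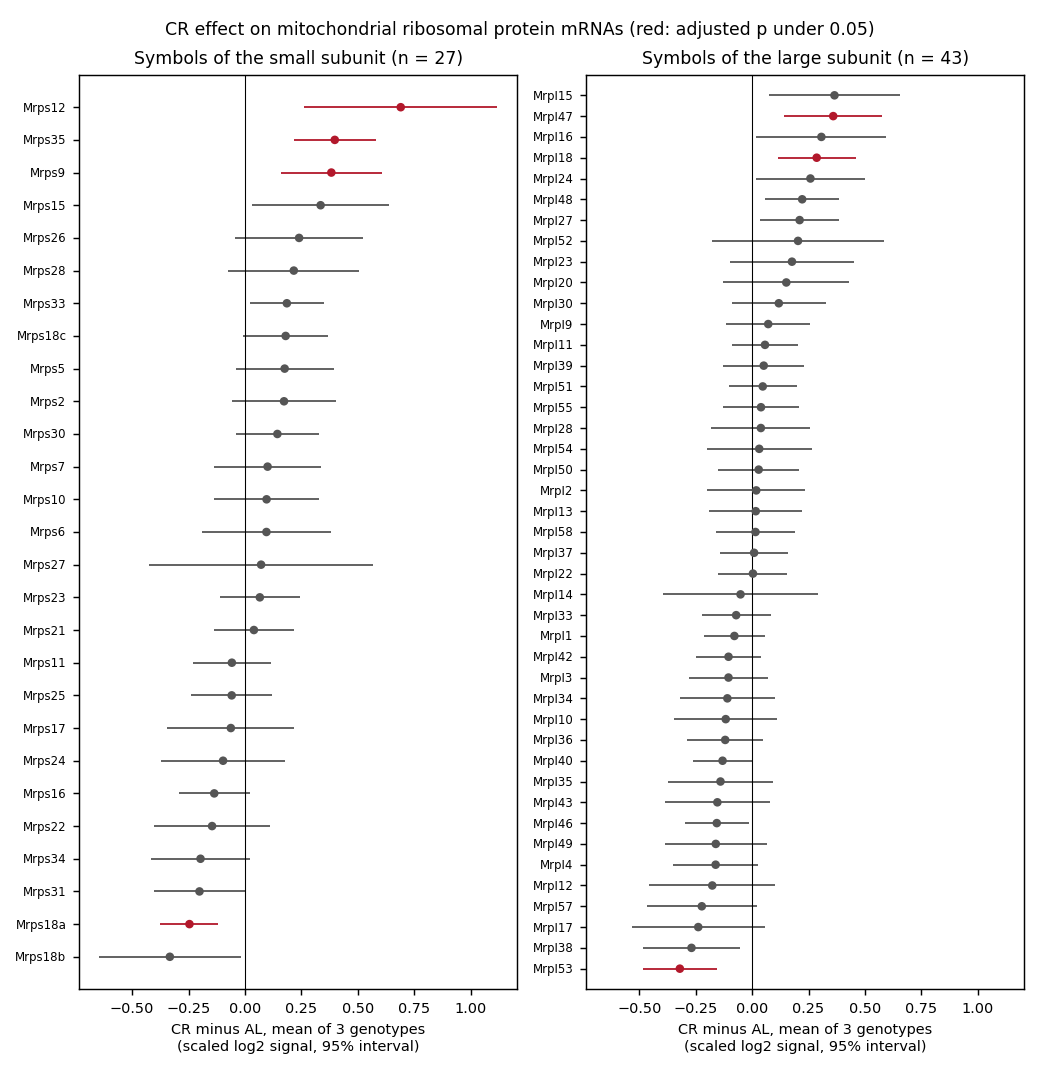
CR minus AL, averaged over the 3 genotypes, for each of the 70 members, on the scaled log2 axis with the 95% interval of the limma fit, small subunit symbols on the left and large on the right. The 7 members past the adjusted threshold are red, and most intervals of the other 63 span 0.

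Mrps35, a small subunit protein with no bacterial counterpart, ran from 1.90 to 2.29 (median 2.15) over the 9 AL libraries and from 2.03 to 2.73 (median 2.52) over the 9 CR libraries. Of the CR libraries 7 lay above the highest AL library, and the exceptions were both CR SIRT1+/- mice, at 2.19 and 2.03. The averaged CR effect was 0.40 (SE 0.0854, 1.32-fold, limma adjusted p = 0.0115), and by genotype the effect measured 0.45 (wild-type), 0.38 (heterozygous) and 0.37 (null).

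Mrps12, a protein of the decoding centre of the small subunit, had the largest change among the probes that stand for the members, although a second probe of Mrpl10 was at -0.77 (adjusted p = 0.115 in a fit of all kept probes). It ran from 3.23 to 4.32 (median 3.63) on AL and from 3.89 to 5.00 (median 4.52) on CR, and 5 of 9 CR libraries lay above every AL library. Its averaged CR effect was 0.69 (SE 0.201, 1.61-fold, limma adjusted p = 0.0408). Heterozygous livers, whose 2 AL libraries were at 3.63 and 3.23, had an effect of 1.09, beside 0.44 for wild-type and 0.54 for null livers, but its difference between SIRT1+/+ and SIRT1+/- was -0.65 (SE 0.512, limma adjusted p = 0.9997) and passed no test.

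Mrps9, the counterpart of a bacterial protein of the small subunit, had AL libraries from 2.41 to 3.21 (median 2.80) and CR libraries from 2.96 to 3.36 (median 3.13). All 9 CR libraries lay above the AL median, yet only 3 lay above the highest AL library. The averaged effect was 0.38 (SE 0.105, 1.30-fold, limma adjusted p = 0.0332).

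Mrpl47, a large subunit protein near the exit of the nascent chain, ran from 2.05 to 2.61 (median 2.43) on AL and from 2.44 to 3.16 (median 2.71) on CR. The highest value belonged to CR SIRT1+/+ replicate 1, and 5 of 9 CR libraries lay above all AL libraries. The averaged effect was 0.36 (SE 0.102, 1.28-fold, limma adjusted p = 0.0369). Mrpl18, whose bacterial counterpart binds the smallest ribosomal RNA of the large subunit, ran from 2.01 to 2.65 (median 2.09) on AL and from 2.23 to 2.53 (median 2.43) on CR. Only 1 AL library lay above the lowest CR library, the one labelled AL SIRT1-/- replicate 1 at 2.65, while the other 8 were at 2.20 or below. Its averaged effect was 0.29 (SE 0.0813, 1.22-fold, limma adjusted p = 0.0372), and without that library it was 0.33 (adjusted p = 0.00666).

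Both members that fell had smaller standard errors than the 5 that rose. Mrps18a is 1 of 3 mammalian versions of a bacterial small subunit protein and, despite its symbol, sits in the large subunit. It ran from 2.77 to 3.03 (median 2.88) on AL and from 2.52 to 2.77 (median 2.70) on CR, and all 9 CR libraries lay below the lowest AL library. Its averaged effect was -0.25 (SE 0.0604, 1.19-fold lower, limma adjusted p = 0.0199), with -0.23, -0.28 and -0.22 in SIRT1+/+, SIRT1+/- and SIRT1-/- livers. The other 2 versions did not pass the test and lay on opposite sides of 0, Mrps18b at -0.33 (adjusted p = 0.155) and Mrps18c at 0.18 (adjusted p = 0.200).

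Mrpl53, a large subunit protein without a bacterial counterpart, ran from 4.70 to 5.05 (median 4.78) on AL and from 4.29 to 4.76 (median 4.53) on CR. In 8 of 9 CR libraries it was below every AL library, CR SIRT1-/- replicate 1 at 4.76 being the exception. The averaged effect was -0.32 (SE 0.0774, 1.25-fold lower, limma adjusted p = 0.0186).

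**Figure D2:**
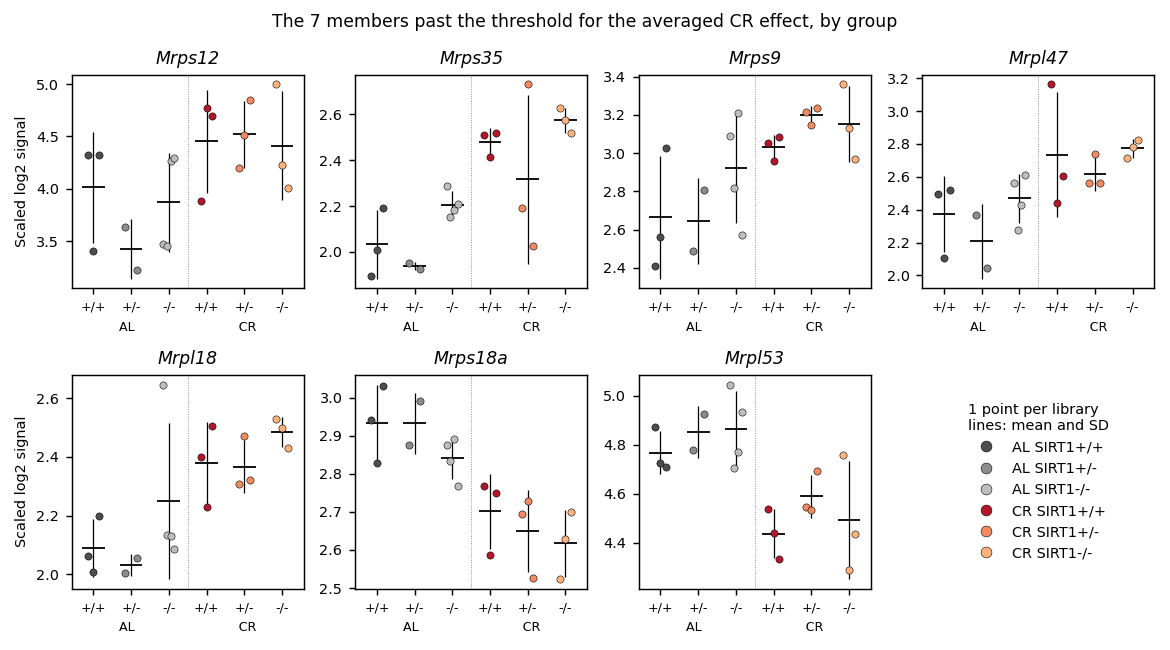
Scaled log2 signal of the 7 members called for the averaged CR effect, 1 point per library, with the mean and SD of each group (n = 3, 2, 4, 3, 3 and 3 from left to right; each panel has its own axis). Mrps18a was below every AL library in 9 of 9 CR libraries and Mrpl53 in 8 of 9, while the CR and AL libraries of the 5 members that rose overlapped.

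Promoter sequences are shown for the 4 called members whose window, 250 bases before to 50 after the RefSeq start (build GRCm38.p6), held 1 of 3 short motifs of factors known from mitochondrial and ribosomal genes. The motifs were GCGCATGC (NRF1), CCGGAAG (ETS factors such as GABPA) and AAGATGGC (YY1), sought on both strands without mismatch. The last 3 bases of the ETS motif are the first 3 of the YY1 motif, so that matches of these can share them. Windows were found for 62 of the 70 members, with none for Mrps35. The sequences run 5′ to 3′ with motif matches in capitals, first for the 2 members that fell and then for 2 that rose.
Mrpl53, chr6:83108858-83109157, plus strand: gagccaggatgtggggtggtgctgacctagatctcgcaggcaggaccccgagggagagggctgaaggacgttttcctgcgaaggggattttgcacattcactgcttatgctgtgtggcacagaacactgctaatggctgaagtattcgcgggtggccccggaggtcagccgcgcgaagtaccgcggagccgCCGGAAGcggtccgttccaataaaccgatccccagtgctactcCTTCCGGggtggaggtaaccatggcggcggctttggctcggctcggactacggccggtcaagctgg
Mrps18a, chr17:46110754-46111053, plus strand: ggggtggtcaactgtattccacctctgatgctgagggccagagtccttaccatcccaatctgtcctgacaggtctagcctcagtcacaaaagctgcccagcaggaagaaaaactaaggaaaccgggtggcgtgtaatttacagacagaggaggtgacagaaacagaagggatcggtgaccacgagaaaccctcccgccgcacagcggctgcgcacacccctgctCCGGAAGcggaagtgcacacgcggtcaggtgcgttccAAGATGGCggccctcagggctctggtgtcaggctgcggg
Mrpl18, chr17:12916042-12916341, minus strand: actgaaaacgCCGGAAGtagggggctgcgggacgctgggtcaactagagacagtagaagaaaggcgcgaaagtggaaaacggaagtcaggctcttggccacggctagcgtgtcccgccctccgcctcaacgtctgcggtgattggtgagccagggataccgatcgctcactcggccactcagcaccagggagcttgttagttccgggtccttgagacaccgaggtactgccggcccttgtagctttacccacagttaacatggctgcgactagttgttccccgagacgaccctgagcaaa
Mrps12, chr7:28741772-28742071, minus strand: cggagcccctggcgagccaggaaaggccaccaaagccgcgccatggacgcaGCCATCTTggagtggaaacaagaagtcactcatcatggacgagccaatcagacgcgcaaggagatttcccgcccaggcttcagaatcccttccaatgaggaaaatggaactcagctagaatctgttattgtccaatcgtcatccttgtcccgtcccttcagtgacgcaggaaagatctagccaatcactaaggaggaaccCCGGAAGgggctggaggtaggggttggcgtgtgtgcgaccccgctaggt
In the Mrpl53 window the ETS motif began at -59 and -16 from the start, in that of Mrps18a at -26, with the YY1 motif at 12, in that of Mrpl18 at -240, and in that of Mrps12 at 2, with the YY1 motif at -199. The windows of the risers Mrps9 and Mrpl47 held none of the 3. The ETS motif was thus found in members that fell and in members that rose.

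Over all 62 windows, 25 members (40.3%) held the ETS motif, 11 (17.7%) the YY1 motif and 7 (11.3%) the NRF1 motif, beside 9.93%, 3.19% and 3.05% of the windows of 27025 genes and 19.4%, 5.25% and 5.84% of the 7280 genes with a window among those kept on the array. Of the member windows with the YY1 motif most held it after the start, since 3 (4.84%) held it in the 250 bases before the start. A match is a description of the letters and no site of binding.

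How far these 7 rest on single libraries and on the makeup of the groups differed among them. Mrps35 stayed under the threshold in all 18 fits that left out 1 library, Mrps18a and Mrpl53 in 17 of them, Mrps9 and Mrpl47 in 9, Mrpl18 in 8 and Mrps12 in 6. Without the library labelled AL SIRT1-/- replicate 1, Mrps12 was no longer called and Mrpl48 was. The median change of the 70 members was then 0.050, beside 0.022 over all genes. With the signal class of the array as a block only Mrps18a remained called (-0.27, limma adjusted p = 0.0344), beside 233 genes that rose and 165 that fell over the whole array. The 7 changes kept their direction and ran from 0.30 to 0.64 in the risers and were -0.26 for Mrpl53. Within the 10 arrays of lower signal the changes were 0.36 for Mrps35, 0.90 for Mrps12, 0.49 for Mrps9, 0.50 for Mrpl47, 0.29 for Mrpl18, -0.29 for Mrps18a and -0.17 for Mrpl53. Within the 8 arrays of higher signal, where only SIRT1+/+ and SIRT1-/- mice allow the comparison, they were 0.31, 0.12, 0.24, 0.10, 0.27, -0.23 and -0.45 in the same order. No change turned its sign. The changes of Mrps12 and Mrpl47 were several times larger in the arrays of lower signal, but the 2 classes do not compare the same groups. The lower class averages 3 genotypes with 1 CR library each, and the higher class 2 genotypes with 1 AL library each. Heterozygous livers, which had the largest CR effect on Mrps12, enter only in the lower class, so class and genotype cannot be told apart here. With Xist detection as a covariate Mrps35, Mrps12 and Mrps18a remained called, and among the 11 libraries without Xist limma called 0 members, with 3 higher and 4 lower unadjusted, beside 38 genes that rose and 29 that fell over the whole array.

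The limits on the other members were narrow. For the averaged CR effect the 95% interval lay within a 1.5-fold change in either direction for 63 of 70 members, beside 78.6% of all genes, and within a 2-fold change for 69. At an unadjusted p under 0.05, 12 members were higher and 7 lower, beside 27.9% of all genes in either direction. The closest to the threshold was Mrpl48, a protein of the central protuberance of the large subunit, whose brightest probe gave 0.22 (SE 0.077, limma adjusted p = 0.0783). In a fit of all kept probes its second probe gave 0.38 (adjusted p = 0.00955) and the third 0.20 (adjusted p = 0.125), so all 3 lay above 0 and 1 passed. Second probes passed that fit in 4 further members whose brightest probe did not. They were at -0.56 for Mrpl43 (adjusted p = 0.00287), -0.24 for Mrpl49 (0.0393), 0.37 for Mrps26 (0.0255) and 0.22 for Mrps33 (0.0404), while the brightest probes gave -0.15, -0.16, 0.24 and 0.19 in the same order, on the same side of 0. Mrpl15 was at 0.36 (SE 0.137, adjusted p = 0.0994) and Mrps15 at 0.33 (SE 0.142, adjusted p = 0.139).

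By subunit, the 27 small subunit symbols had a median change of 0.095, with 3 rises and 1 fall, and the 43 large subunit symbols a median of 0.015, with 2 rises and 1 fall. The 40 members numbered like their bacterial counterparts had a median of 0.039 and the 30 with later numbers a median of 0.022. The classes were taken from the symbols alone, and some later numbers, among them Mrpl47 and Mrps24, are bacterial counterparts too. Members in which human mutations cause defects of the respiratory chain did not pass the test, with averaged changes of -0.10 for Mrpl3, -0.18 for Mrpl12, -0.14 for Mrps16 and -0.15 for Mrps22. Mrps5, whose lower expression has been linked to longer life in mouse strains and worms, was at 0.18 (SE 0.102, adjusted p = 0.279).

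The second question was whether the CR effect needed SIRT1. Within single genotypes no member was called. In SIRT1+/+ livers 0 of 70 members passed limma's adjusted test (0.659% of all genes), and at an unadjusted p under 0.05 there were 4 higher and 2 lower (14.6% of all genes). In SIRT1+/- livers it was 0 (0.0223% of all genes), with 5 higher and 1 lower unadjusted (8.34% of all genes). In SIRT1-/- livers it was 0 (0.145% of all genes), with 1 higher and 8 lower unadjusted (15% of all genes), and without the library labelled AL SIRT1-/- replicate 1 it was 0, with 2 higher and 4 lower. The median member change was 0.057 for wild-type, 0.064 for heterozygous and -0.056 for null livers, beside 0.032, 0.028 and 0.013 over all genes, and that of null livers was -0.028 without the same library.

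The members behind these unadjusted counts differed in part. Mrps35 was higher on CR in each genotype and Mrps18a lower in each. Wild-type livers added Mrpl15 (0.53), Mrps28 (0.49) and Mrpl48 (0.34) on the higher side and Mrpl53 on the lower. Heterozygous livers added Mrps12, Mrps9, Mrpl47 and Mrpl18 on the higher side. In null livers the lower side held, besides Mrpl53 and Mrps18a, the large subunit members Mrpl17 (-0.53), Mrpl42 (-0.36), Mrpl58 (-0.33), Mrpl46 (-0.29) and Mrpl40 (-0.24) and the small subunit member Mrps16 (-0.26). Mrpl17, a counterpart of a bacterial protein, was at 5.35, 4.81, 5.46 and 5.39 in null livers on AL and at 5.09, 4.52 and 4.55 on CR. Replicate 2 on AL lay within the range of the CR livers, and the limma adjusted p was 0.261. Mrpl40 was at 3.11, 2.95, 2.94 and 3.00 in null livers on AL and at 2.61, 2.86 and 2.79 on CR, with no overlap, and its limma adjusted p was 0.249. Without the library labelled AL SIRT1-/- replicate 1 the lower members of null livers at an unadjusted p under 0.05 were Mrpl57 (-0.43), Mrpl42 (-0.32), Mrpl53 (-0.31) and Mrpl46 (-0.25), while Mrpl58 was at -0.21, and Mrpl18 (0.37) joined Mrps35 on the higher side. For none of these was a difference between genotypes called.

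The 3 effects have no library in common, and 25 members were above 0 in each genotype and 18 below 0 in each, together 61.4% of members beside 52.7% of all genes. Across the 70 members the effect in SIRT1+/+ had a Pearson r of 0.72 with that in SIRT1+/- and 0.60 with that in SIRT1-/- livers, against 0.66 and 0.37 over all genes. These are descriptions across genes, which are not independent and share the depth of their arrays.

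**Figure D3:**
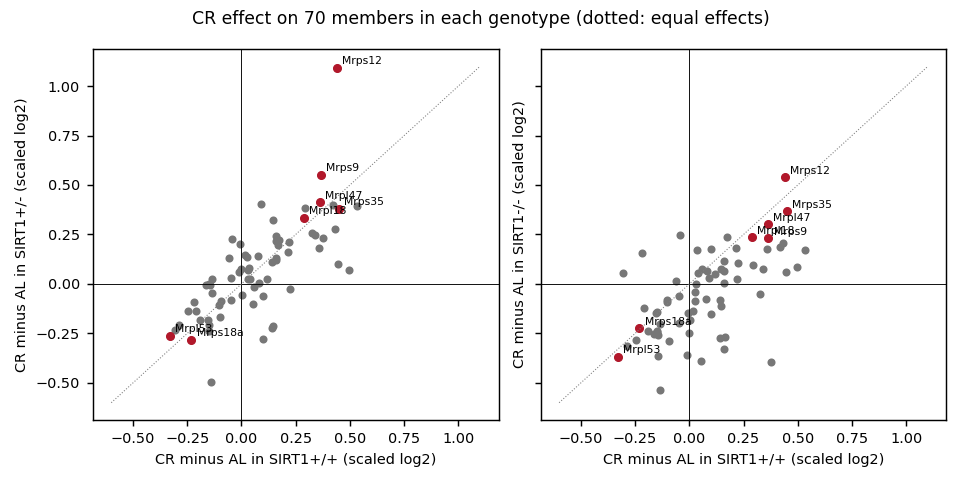
CR minus AL in SIRT1+/- (left) and SIRT1-/- livers (right) against CR minus AL in SIRT1+/+ livers for 70 members, in scaled log2 units, with the 7 members called for the averaged effect in red and equal effects on the dotted line. The 7 lie on the same side of 0 in all 3 genotypes, and more grey points lie below the dotted line on the right than above it.

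The difference of the CR effects between SIRT1+/+ and SIRT1-/- livers was called in 0 of 70 members by limma (0.0223% of all genes), with 2 above 0 at an unadjusted p under 0.05 (5.21% of all genes). Of the 70 differences 54 were above 0, with a median of 0.092 beside 0.014 and 52.3% above 0 over all genes. Without the library labelled AL SIRT1-/- replicate 1 the median was 0.061 and 49 were above 0, and without the Xist libraries, which leaves 1 CR library in each of the 2 genotypes, it was 0.053 with 39 above 0, beside a median of 0.096 over all genes. With Xist as a covariate it was 0.118 with 57 above 0. It was 0.092 with 53 above 0 with the signal class as a block, and 0.110 with 56 with the replicate block. Within the arrays of lower signal, with 1 CR library in each genotype, it was 0.139 with 52. Between SIRT1+/- and SIRT1-/- livers the difference was called in 0 members (0% of all genes), with 2 unadjusted (3.13% of all genes) and a median of 0.108. That median was 0.067, with 40 above 0 in place of 47, without the library labelled AL SIRT1-/- replicate 1, and -0.031 within the arrays of lower signal, where each genotype has 1 CR library. Between SIRT1+/+ and SIRT1+/- livers it was called in 0 (0% of all genes), with 0 unadjusted (1.17% of all genes) and a median of -0.002. These differences share the SIRT1+/+, SIRT1+/- or SIRT1-/- livers and are not independent of each other.

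The members with the smallest p for the difference were Mrpl58 and Mrpl42. Mrpl58 is a large subunit protein that can free stalled peptides from the ribosome. On AL, wild-type livers were at 1.74, 1.59 and 1.51, heterozygous livers at 1.72 and 1.44 and null livers at 2.31, 1.77, 1.90 and 1.80. On CR, wild-type livers were at 1.74, 1.68 and 1.89, heterozygous livers at 1.78, 1.87 and 1.73 and null livers at 1.60, 1.52 and 1.72. Thus the 4 AL SIRT1-/- libraries were above the 3 CR SIRT1-/- libraries, the SIRT1+/+ libraries of both diets overlapped, and the CR SIRT1+/- libraries were just above the AL SIRT1+/- ones. Its CR effect was 0.16 for wild-type, 0.22 for heterozygous and -0.33 for null livers, and the difference between SIRT1+/+ and SIRT1-/- was 0.49 (SE 0.193, unadjusted p = 0.0223, limma adjusted p = 0.799). Without the library labelled AL SIRT1-/- replicate 1, at 2.31, the difference was 0.37 (adjusted p = 0.787).

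Mrpl42, a protein specific to mitochondrial ribosomes, was at 4.32, 4.22, 4.12 and 4.14 in AL SIRT1-/- and at 3.85, 3.83 and 3.84 in CR SIRT1-/- mice. In SIRT1+/+ mice it was at 4.10, 3.85 and 4.04 on AL and 4.03, 3.94 and 3.98 on CR. The SIRT1-/- libraries of the 2 diets did not overlap and the SIRT1+/+ libraries did. The CR effect in SIRT1-/- livers was -0.36 (SE 0.107, limma adjusted p = 0.157), and its difference from SIRT1+/+ was 0.35 (SE 0.156, adjusted p = 0.911). Without the library labelled AL SIRT1-/- replicate 1 the 2 values were -0.32 (limma adjusted p = 0.230) and 0.31 (adjusted p = 0.877).

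The third question was the effect of genotype at a fixed diet. On AL, SIRT1-/- minus SIRT1+/+ was called in 0 of 70 members by limma (0.38% of all genes), with 5 higher, 0 lower for p under 0.05 without adjustment (6.59% of all genes). The median member difference was 0.069 beside 0.016 over all genes, and 49 of 70 were above 0 (54.2% of all genes). On AL, Xist was detected in 2 of 4 SIRT1-/- libraries and in none of the other genotypes, so null genotype and sex are partly confounded. With Xist as a covariate the median was 0.107 beside 0.0050 over all genes, and 56 members were above 0. Mrpl46 led, at 3.83, 3.66 and 3.63 in SIRT1+/+ and 4.10, 3.91, 4.01 and 3.94 in SIRT1-/- livers, with no overlap and a difference of 0.28 (SE 0.106, adjusted p = 0.525). Mrpl48 (0.32) and Mrpl58 (0.33) followed, with adjusted p = 0.532 and 0.583. Without the library labelled AL SIRT1-/- replicate 1 Mrpl46 was at 0.25, Mrpl48 at 0.24 and Mrpl58 at 0.21, the median was 0.029, 43 were above 0 and 1 was unadjusted higher. SIRT1-/- minus SIRT1+/- on AL gave 0 called (0.246% of all genes), 2 unadjusted (6.8% of all genes) and a median of 0.070, and without that library 0 unadjusted and a median of 0.048. SIRT1+/- minus SIRT1+/+ on AL gave 0 called (0% of all genes), 0 unadjusted (1.11% of all genes) and a median of 0.0089. The 3 differences share their groups.

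On CR no genotype difference was called in any member by limma. SIRT1-/- minus SIRT1+/+ gave 0 called (0% of all genes) and 1 unadjusted (3.92% of all genes), Mrps30, a protein related to a factor of cell death, with 0.33 (SE 0.147, adjusted p = 0.999). SIRT1+/- minus SIRT1+/+ gave 0 (0% of all genes) and 0 unadjusted (4.47% of all genes), and SIRT1-/- minus SIRT1+/- gave 0 (0% of all genes) and 0 unadjusted (5.09% of all genes). The 95% intervals lay within a 2-fold change for 69, 70 and 69 of the 70 members.

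In each library the median over members of the difference from the AL SIRT1+/+ mean summed the family in 1 value. On AL it averaged 0.012 ± 0.071 (SD, n = 3) for wild-type, 0.026 ± 0.037 (n = 2) for heterozygous and 0.107 ± 0.098 (n = 4) for null livers. On CR the averages were 0.053 ± 0.087, 0.090 ± 0.031 and 0.035 ± 0.096 (n = 3 each) in the same order. Every other group overlapped the AL SIRT1+/+ libraries. The 2 highest libraries were the one labelled AL SIRT1-/- replicate 1 at 0.208 and AL SIRT1-/- replicate 4 at 0.169, and the lowest were CR SIRT1-/- replicate 3 at -0.066 and AL SIRT1+/+ replicate 2 at -0.063.

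**Figure D4:**
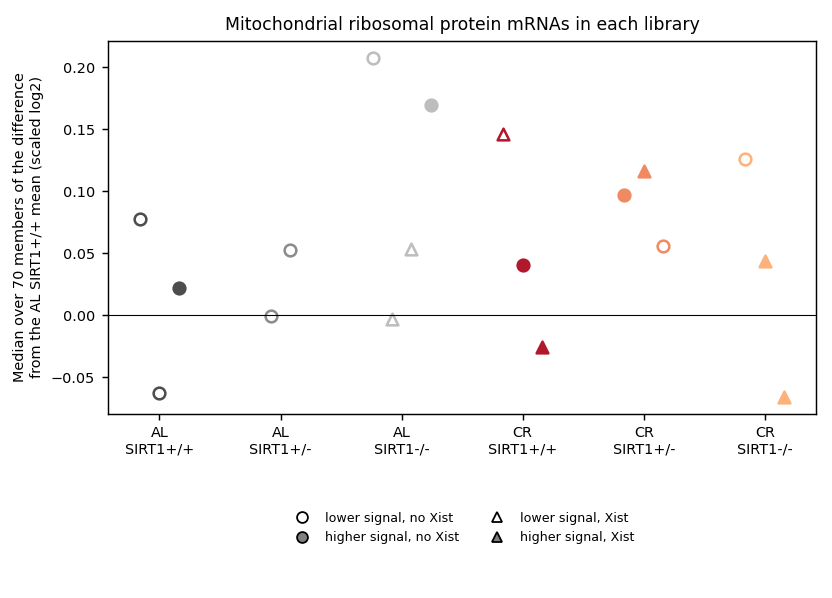
Median over the 70 members of the difference from the AL SIRT1+/+ mean, in scaled log2 units, 1 symbol per library and group (filled: array of higher signal; triangle: Xist detected). Libraries ran from -0.066 to 0.208, and every group overlapped the AL SIRT1+/+ libraries.

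The members did not vary as 1 unit among mice of a group. With group means removed, the median Pearson r of member pairs over 18 libraries was 0.126, beside 0.029 for all genes. It was 0.583 for 54 genes with symbols of cytosolic ribosomal proteins and 0.316 for 76 with symbols of oxidative phosphorylation subunits. These lists, taken by symbol, also hold a few genes of other kinds, given below. Mrpl54, Mrpl13 and Mrpl11 were most like the mean of the other members (r = 0.88, 0.85 and 0.85), and Mrpl3, Mrpl57 and Mrpl49 least (r = -0.69, -0.37 and -0.32). The median of this r over members was 0.37, and 53 of the 70 were above 0. The median within-group SD of a member was 0.209, beside 0.221 over all genes.

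Part of this pattern moved with the brightness of the array. The within-group deviation of Mrps24 had r = -0.85 with that of the array's median log2 signal, followed by Mrpl12 (-0.83) and Mrps34 (-0.79), whereas Mrps2 (0.84), Mrpl15 (0.84) and Mrpl24 (0.81) ran the other way. In all, 13 members were above 0.5 and 15 below -0.5, beside 19.4% and 7.24% of all genes. Over the 13 libraries that share group and signal class with another, with the means of both removed, the median r of member pairs was 0.196. The part of array brightness in the CR effects of these members was not tested beyond the fits given above.

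**Figure D5:**
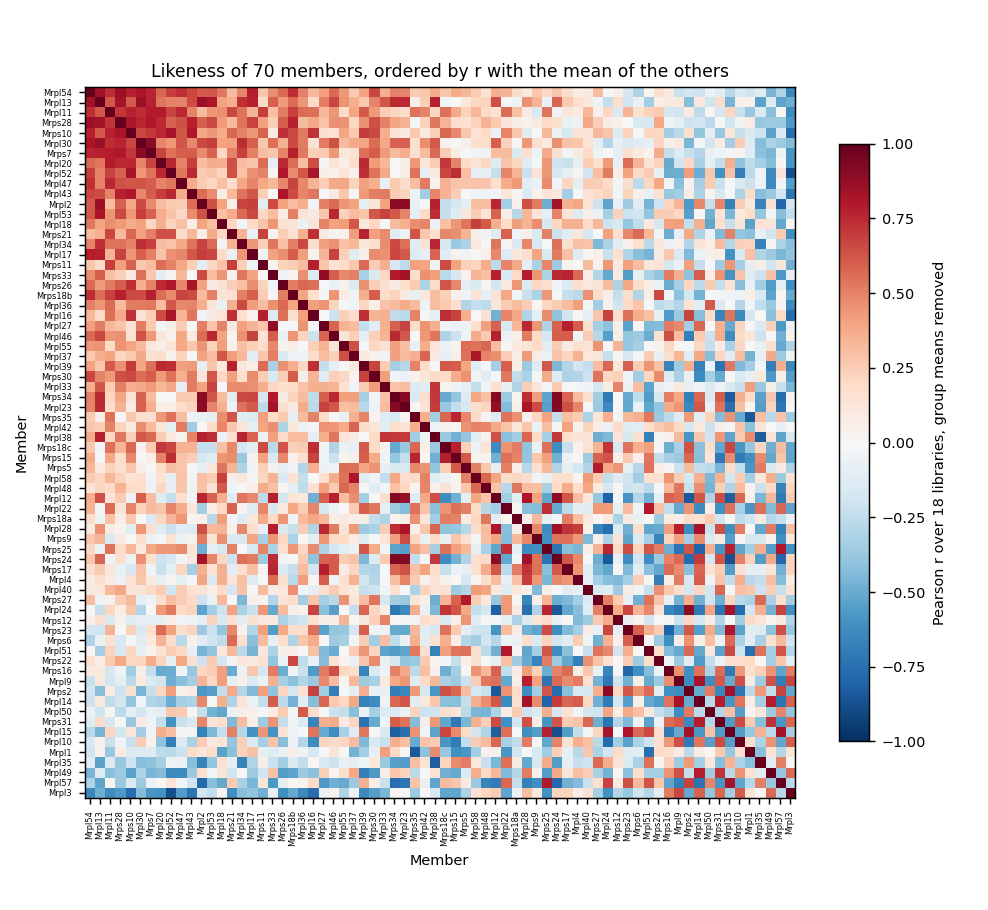
Pearson r of each pair of the 70 members over 18 libraries with group means removed, members ordered by their r with the mean of the other members, from Mrpl54 (0.88) to Mrpl3 (-0.69). A block of like members fills the upper left corner, and Mrps24, Mrpl12 and Mrps34 run against Mrps2, Mrpl15 and Mrpl24.

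Members do not work alone, and the machinery around the ribosome is given by lists of related genes. Of 7 nuclear regulators measured, 2 rose on CR and none fell: Ppargc1a, which encodes PGC-1α, by 1.12 (SE 0.195, limma adjusted p = 0.00407) and its partner Esrra by 0.52 (SE 0.127, adjusted p = 0.0186). The list median was 0.333, beside 0.025 over all genes. That median is the value of Sirt1 itself (limma adjusted p = 0.091), which is in the list and whose probe did not separate the genotypes. Nrf1, a regulator of genes of the mitochondrial translation machinery, was at -0.058 (adjusted p = 0.763) and Gabpa at 0.128 (adjusted p = 0.330). Of the 76 genes with symbols of nuclear oxidative phosphorylation subunits 10 rose and 0 fell (median 0.048), beside the 6.41% and 3.63% of all genes. Among the risers were Cox7a1 by 0.98 and Sdhd by 0.66. These symbols also took in assembly factors such as Ndufaf4, and Ndufs5-ps, named as a pseudogene. Of the 10 translation factors 1 rose, the elongation factor Gfm1 by 0.55 (adjusted p = 0.0050), of 15 aminoacyl-tRNA synthetases 1, Wars2 by 0.28 (adjusted p = 0.0334), of 16 assembly factors 2, Mterf3 by 0.38 and Mrm1 by 0.33, and of 13 genes of mitochondrial transcription and RNA 1, Polg2 by 0.60. In the list of the mitochondrial unfolded protein response (8 genes) the chaperonin Hspd1 rose by 0.35 and the transcription factor Atf5 fell by 0.68. The counts of 1 or 2 in these short lists stand beside the same shares of all genes and are given as values. Of 54 genes with symbols of cytosolic ribosomal proteins 1 rose, Rpl7a by 0.47, and the median was -0.028. These symbols also took in the kinases Rps6ka3 and Rps6kb2 and the binding protein Rps19bp1. Of 3 further ribosome subunits none was called, at an unadjusted p under 0.05 1 (Ptcd3, 0.54, adjusted p = 0.0521).

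Some called members lie beside genes that were also measured. Mrpl47 lies 301 bases from Ndufb5, a subunit of complex I, and both rose, by 0.36 and 0.52, while Actl6a, 523 bases away, was at 0.23 (limma adjusted p = 0.233). Mrps12 lies 135 bases from Sars2, the mitochondrial seryl-tRNA synthetase, which was at -0.083 (limma adjusted p = 0.624) while Mrps12 rose by 0.69. Mrpl18 overlaps Tcp1, a subunit of the cytosolic chaperonin, in the annotation, and Tcp1 was at 0.20 (adjusted p = 0.272).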

How the data were processed

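Total RNA from the liver of each mouse was hybridized to an Illumina MouseRef-8 v2 array, 1 array per mouse. Arrays were read in BeadStudio 3.4.0 per the submitters' processing notes, and the authors deposited a signal intensity for each probe without background subtraction, a detection p-value, and a score, the z-transformed log10 intensity within the array. Z-scores recomputed here differed from the deposited score by at most 5.0e-10. They were multiplied by 1.84, the average SD of log2 signal within an array. Groups came from the sample labels. Depth does not apply to arrays, and the 18 arrays, with 10726 to 11386 probes detected each, limit the precision. The array has 25697 probes, of which 23978 have 1 gene symbol in the annotation used and 1719 were left out as unnamed.

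Probes detected (p under 0.05) in 2 or more libraries were kept, the brightest probe stood for each symbol, and 8950 genes were fitted with limma 3.58.1 in R 4.3.3 as 6 group means with moderated variance. The fit gave 13 contrasts, namely the 3 CR effects, their mean, their pairwise differences and the effects of genotype on each diet, adjusted by Benjamini-Hochberg over all genes. Sequences and positions are from RefSeq (GRCm38.p6). The members, gene lists and tests were chosen with earlier results of these data known. Members named are those past the threshold in any contrast, up to 3 of smallest p in each direction of a contrast, members fixed by name for disease or ageing, and the extremes of likeness. In the lists, the genes past the threshold were named or counted. Second probes, Mrpl57, Mrpl15, Mrps15, Mrps28, Mrpl17, Mrpl40, Mrps18b, Mrps18c, Mrpl24, Mrps2 and Mrps34, Nrf1, Gabpa and the neighbouring genes were named after their values were seen. The settings tried besides were quantile normalization, neqc (offset 16), the deposited score, a stricter detection limit (p under 0.01), no such limit, averaging the probes of a gene, the compared groups alone, array weights, the replicate number as a block, Xist as a covariate, only libraries without Xist, 18 fits without 1 library, and, after seeing the data, the signal class of the array as a block, with Xist, and within each class. Scripts were tested on simulated data. Tables and figures used scipy 1.17.1, numpy 2.4.6, pandas 2.3.3 and matplotlib 3.10.9 in Python 3.11.15. The labels do not say whether arrays shared a chip.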

Additional observations from a re-analysis of the deposited data

Results flagged for a closer look

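In AL SIRT1-/- mice, the only group with 4 libraries, the gap of 1 library to the others exceeded Dixon's 95% limit in 5 of the 70 members, and chance flags about 1 group in 20. Mrpl18 was at 2.65 in the library labelled AL SIRT1-/- replicate 1 beside 2.09 to 2.13 in the others. The same library was low for Mrpl36, at 3.81 beside 3.94 to 3.96, and for Mrps6, at 0.793 beside 1.02 to 1.03. Mrpl17 was at 4.81 in replicate 2 beside 5.35 to 5.46. Mrpl28 was at 4.09 in replicate 4 beside 4.73 to 4.82.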

How the results depend on the processing

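Under quantile normalization, neqc, the deposited score, a stricter detection limit, no such limit, averaged probes and the compared groups alone, between 5 and 9 members were called for the averaged CR effect, and no member was called in any other contrast. Quantile normalization and neqc each kept 4 of the 7, Mrps35, Mrps12, Mrps18a and Mrpl53. Both lost Mrps9, Mrpl47 and Mrpl18 and added Mrps33. Mrps12 was lost without a detection limit, and averaged probes added Mrpl43 and Mrpl48 to the 7. Array weights called 19 members, where 1323 genes rose and 813 fell over the whole array. The same counts over all genes were 248 and 133 with Xist as a covariate, 233 and 165 with the signal class as a block, and 119 and 95 with both terms. Xist as a covariate left 3, the libraries without Xist 0, the signal class as a block 1, both terms 1, and the arrays of lower signal 0, with fewer libraries in the fits without Xist and within a class. The cause was not tested for the other settings. Within the arrays of lower signal 1 member was called for the CR effect in SIRT1+/+ livers, Mrpl49 (-0.82, limma adjusted p = 0.0304), which was not called with all arrays and rests on 1 CR library against 2 on AL, assumed to vary like the other groups. Leaving out 1 library gave 2 to 9 called members, and the count fell by over 1.5 times on AL without SIRT1+/+ replicates 1 (3) and 2 (3), SIRT1+/- replicates 1 (3) and 2 (2) or SIRT1-/- replicate 2 (3), and on CR without SIRT1-/- replicates 1 (4) and 2 (3), SIRT1+/- replicate 2 (3) or SIRT1+/+ replicate 3 (4).

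The median member change moved by more than the spread between libraries (0.0795) in 2 settings, in which several groups are down to 1 library. Among libraries without Xist it was 0.156 for SIRT1-/- minus SIRT1+/+ and 0.181 for SIRT1-/- minus SIRT1+/- on AL, and 0.136 and 0.0498 for the same differences on CR, where SIRT1+/+ and SIRT1-/- have 1 library each. Within the arrays of lower signal, with 1 CR library in each genotype, it was 0.0289 for the CR effect in SIRT1-/- livers, 0.128 and -0.0308 for the differences of CR effects SIRT1+/+ minus SIRT1+/- and SIRT1+/- minus SIRT1-/-, and -0.113 and 0.102 for SIRT1+/- minus SIRT1+/+ and SIRT1-/- minus SIRT1+/- on CR. Within the arrays of higher signal the median CR effect over SIRT1+/+ and SIRT1-/- livers was -0.069, beside -0.0084 with all arrays. Of the 7 members called for the averaged CR effect none turned its sign under any setting run.

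Same-numbered libraries of different groups had a mean r of 0.0277 over 40 pairs, from -0.181 to 0.289, with 10 pairs over 0.1. The 94 other pairs had a mean r of -0.0116, with 17 over 0.1. Whether the numbers pair the mice was not tested. With the replicate block 8 members were called for the averaged CR effect, 6 of them among the 7 called without it, and 0 in every other contrast. Over the whole array 818 genes rose and 486 fell in that fit. The number of arrays per group, 2 to 4, limits what differences between genotypes can be seen.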
